A study of Mus musculus with 6 samples.

Results

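The genes studied here are the cyclin-dependent kinase (CDK) inhibitors of the mouse and the gene Cdkn3, measured by RNA sequencing in 6 BCR-ABL positive mouse cell lines. Members were taken by symbol: Cdkn2a, Cdkn2b, Cdkn2c and Cdkn2d of the INK4 family, Cdkn1a, Cdkn1b and Cdkn1c of the CIP/KIP family, and Cdkn3. All 8 had 1 row each among the 25899 symbols of the count table, and 7 of them passed the filter on low counts, which left 10896 genes to test. Cdkn1c had 0 counts in all 6 libraries. The comparison was between 3 lines labelled Cdk6 wild type (WT1, WT2 and WT3) and 3 labelled Cdk6 knockout (KO1, KO2 and KO3). BCR-ABL, the fusion kinase of the Philadelphia chromosome, was present in both groups. Per the labels' protocol, WT cells had received the control plasmid pSpCas9(BB)-2A-GFP(px458) by electroporation, and KO cells a version of it with sgRNAs against CDK6, named hCDK6del. Cells positive for GFP were sorted and seeded singly, so that a line is the outgrowth of 1 cell, and loss of CDK6 was checked by Western blot. Nothing in the labels says that same-group lines came from separate parent cultures, so the tests measure only the spread between these samples.

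INK4 proteins bind CDK4 and CDK6 and keep the D-type cyclins from activating them, whereas CIP/KIP proteins bind complexes of cyclins with CDK2 and other CDKs. CDK4 and CDK6 in complex with D cyclins also take up p21 and p27, the CIP/KIP proteins made from Cdkn1a and Cdkn1b, and phosphorylate the retinoblastoma protein on the way from G1 to S phase. Cdkn2a also encodes p19Arf in another reading frame, an inhibitor of MDM2 and thereby an activator of p53. The locus that holds Cdkn2a and Cdkn2b is often lost in BCR-ABL positive acute lymphoblastic leukaemia. Cdkn3 belongs to neither family: its product is a phosphatase that removes the activating phosphate from CDK2.

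The libraries held 17859519 (KO1) to 24108563 counts (WT1), and 3 counts were worth 0.125 to 0.165 CPM, the usual unit of counts relative to library size. CPM values were scaled by library total and TMM factor, and all intervals of counts cover counting error only. KO2 stood apart from the other libraries: its correlation with them across genes was 0.845 to 0.921, while WT1 and WT3 correlated at 0.99. Fold changes of the members and medians of lists are therefore given with and without KO2. WT2 was the library nearest to KO2, at 0.921 against 0.845 to 0.866 for the rest. WT2 itself correlated at 0.968 with WT1 and 0.971 with WT3. E2f6, picked as a clear case, was at 8.85 CPM in WT2, 28.85 CPM in KO2 and 0 to 0.292 CPM elsewhere. Values without KO2 still include WT2. For the tested members, fold changes without both are in the plot of fold changes by gene. Genes of the early B lineage were present in both groups: Pax5 ran from 168.0 to 184.8 CPM in WT and 184.2 to 193.5 CPM in KO, and Ebf1 from 241.4 to 295.0 and from 265.3 to 455.2 CPM. Ebf1 was highest in KO2. Of the other genes of that lineage, some were lowest in KO2 and some were not. Igll1 was at 652.0 CPM there against 1111 to 1237 CPM in the other 5 libraries. Vpreb1 was at 367.7 against 479.1 to 578.2 CPM, and Cd79a at 535.5 against 674.7 to 872.4 CPM. Their part in the results was not tested. Of 5 T cell markers measured, 3 were at 0 throughout and the rest summed to at most 0.824 CPM, and the erythroid and stromal markers were each under 1 CPM. The myeloid markers summed to 2.08 to 6.72 CPM in WT and 0.667 to 30.5 CPM in KO, the latter in KO1 through Itgam at 28.9 CPM. In the list of mature B and plasma cells, Ms4a1 was at 0 throughout and Sdc1 ran from 43.7 to 65.3 CPM. Cdk6, the targeted gene, measured 39.7, 45.7 and 55.9 CPM in the WT lines and 41.3, 75.2 and 39.0 CPM in KO1 to KO3. These ranges overlapped (log2 fold change 0.14 ± 0.29 SE, edgeR adjusted p = 0.90), and whole-gene counts do not show a small deletion. WT and KO therefore name the libraries as labelled, wherever a direction is given.

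The main comparison asked whether CDK inhibitor transcripts differ when CDK6, the kinase that INK4 proteins bind, has been targeted. None of the 7 tested genes passed the edgeR quasi-likelihood test at a Benjamini-Hochberg adjusted p of 0.05, by DESeq2 or by limma-voom, and 0 had an unadjusted edgeR p under 0.05. Over all 10896 genes edgeR called 0 (0.0%), an unadjusted p under 0.05 was found for 1030 (9.45%), and 219 of 10946 genes (2.0%) were called by DESeq2. DESeq2 without KO2, a setting chosen after seeing the data, called 684 of 11496 genes (5.95%) and 0 of the 7. For all 7 genes the WT and KO ranges overlapped. By comparison, every KO library lay above every WT library for 935 genes (8.58%) and below for 1200 (11.0%). Scaled by library totals alone, those shares were 10.6% and 8.68%, and Cdkn1b then had all KO libraries above all WT libraries by a small margin. The log2 fold changes were positive for 5 of the 7 genes, and for 5748 of the 10896 tested genes. The median of the 7 was 0.20 against 0.01 over all tested genes, and without KO2 it was 0.02. In bulk RNA, fewer cells with a transcript and less transcript per cell cannot be told apart.

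**Figure D1:**
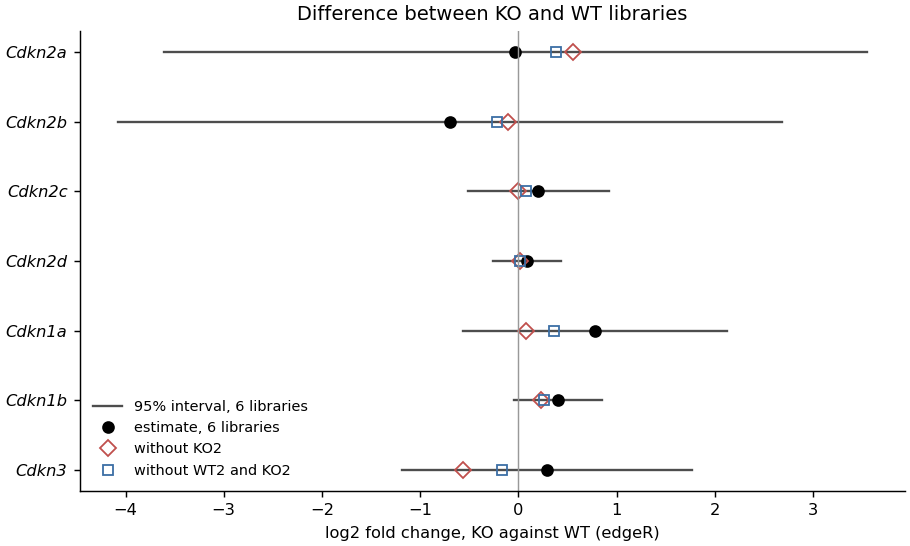
Log2 fold change of KO against WT from edgeR (horizontal axis) for the 7 tested genes (rows): filled circles with 95% intervals use all 6 libraries, diamonds leave out KO2, and squares leave out WT2 and KO2. All 7 intervals include 0, and those of Cdkn2a (-3.61 to 3.55) and Cdkn2b (-4.08 to 2.68) are the widest of the 7.

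KO2 lay at an end of the range for each of the 7 tested genes. It was the highest of the 6 libraries for 5 of them (Cdkn1a, Cdkn1b, Cdkn2c, Cdkn2d and Cdkn3) and the lowest for Cdkn2a and Cdkn2b. Since KO2 was the highest library for 31.1% and the lowest for 33.4% of all tested genes, being at an end of the range is common in that library. The size of the difference at Cdkn2a and Cdkn2b was less common: of 9248 genes that averaged 5 CPM or more in the other 5 libraries, 126 (1.36%) had 3 counts or fewer in KO2. The same rule found 20, 4, 29, 55 and 53 genes in WT1, WT2, WT3, KO1 and KO3. The rule was chosen with the values of Cdkn2a and Cdkn2b known, and these genes are neighbours.

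**Figure D2:**
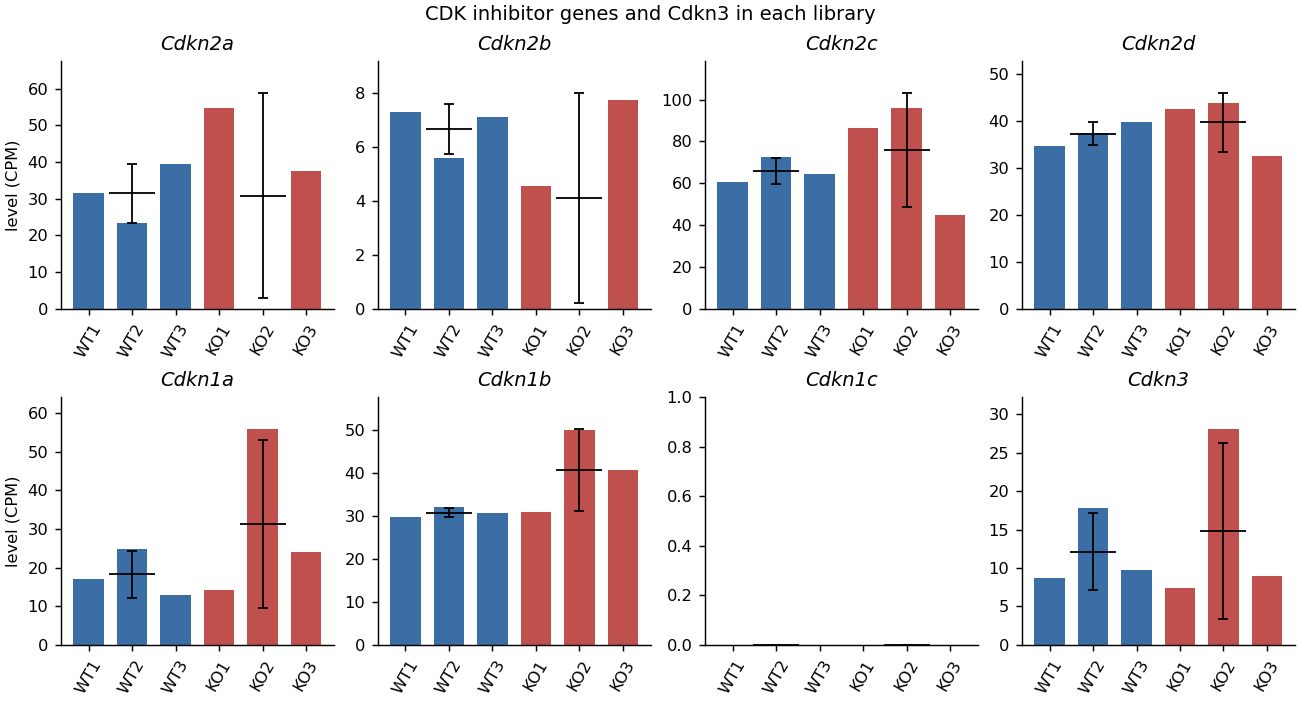
CPM of each of the 8 genes (panels, vertical axes from 0 with a separate scale each) in WT1 to WT3 (blue) and KO1 to KO3 (red): bars are single libraries, black lines are group means ± SD (n = 3). KO2 has no visible bar for Cdkn2a or Cdkn2b and the highest bar for Cdkn1a (55.7 CPM) and Cdkn3 (28.0 CPM), and Cdkn1c is at 0 throughout.

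Cdkn2a lies on chromosome 4 (GRCm38, 89274473 to 89294619, minus strand), 11669 bp from Cdkn2b (89306289 to 89311032, minus strand). Its pair of first exons start separate transcripts, p16Ink4a and p19Arf, which share later exons and which counts per gene do not separate. RefSeq starts on GRCm38.p6 gave 10 promoters for 7 of the 8 genes, each from 250 bases before to 50 after a start. They were searched on both strands for the E2F letters TTTCCCGC, TTTCGCGC, TTTGCCGC and TTTGGCGC, the GC box GGGCGG and the cell cycle homology region TTTGAA. Of 32851 promoters of all genes, 2.26% held an E2F match, 35.7% a GC box and 17.9% the cell cycle homology region. The promoters of the locus are shown because their genes were all but missing in KO2 alone: those of Cdkn2a at its inner start (p16Ink4a, chr4:89282143-89282442) and outer start (p19Arf, chr4:89294570-89294869) and that of Cdkn2b (chr4:89310983-89311282). They are written 5′ to 3′ along the minus strand, with matches in capitals.
Cdkn2a inner start: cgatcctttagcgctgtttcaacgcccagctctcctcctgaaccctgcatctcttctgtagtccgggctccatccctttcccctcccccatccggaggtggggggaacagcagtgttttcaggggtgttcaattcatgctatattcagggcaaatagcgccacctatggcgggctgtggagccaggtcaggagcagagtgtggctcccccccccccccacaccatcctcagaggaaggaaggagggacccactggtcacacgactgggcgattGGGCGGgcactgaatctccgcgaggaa
Cdkn2a outer start: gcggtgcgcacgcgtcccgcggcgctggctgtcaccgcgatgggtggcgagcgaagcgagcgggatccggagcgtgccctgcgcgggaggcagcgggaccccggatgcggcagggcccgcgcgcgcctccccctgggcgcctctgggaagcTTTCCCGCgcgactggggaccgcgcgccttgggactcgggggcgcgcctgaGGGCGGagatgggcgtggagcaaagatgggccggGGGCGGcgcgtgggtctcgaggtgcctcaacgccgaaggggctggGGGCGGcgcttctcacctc
Cdkn2b: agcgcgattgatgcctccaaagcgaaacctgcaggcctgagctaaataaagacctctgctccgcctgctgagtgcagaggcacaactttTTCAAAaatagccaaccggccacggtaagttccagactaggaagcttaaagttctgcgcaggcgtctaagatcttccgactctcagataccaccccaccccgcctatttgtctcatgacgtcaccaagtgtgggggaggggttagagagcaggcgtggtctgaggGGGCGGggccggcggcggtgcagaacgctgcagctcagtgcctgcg
The outer Cdkn2a start held 45 CpG dinucleotides, as many as or more than 98.4% of promoters, with an E2F match at -99 from the start and 3 GC boxes. The inner start held 12 CpG dinucleotides and 1 GC box. Cdkn2b held 18 CpG dinucleotides, a GC box at 5 and the cell cycle homology region on the other strand (TTCAAA) at -161. Over all promoters the median was 7 CpG dinucleotides. No 2 matches overlapped, and a match describes letters and not a bound site.

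Cdkn2a had 757, 437 and 797 counts in WT1 to WT3 and 996, 1 and 793 counts in KO1 to KO3. In CPM these were 31.6, 23.3 and 39.45 in WT and 54.7, 0.0513 and 37.5 in KO. KO1 was thus the highest library and KO3 lay within the WT range, while KO2 held a single count. Against KO1 and KO3 together, with 1789 counts, the level in KO2 was 886-fold lower (95% exact counting interval 159 to 35000). The group means were 31.4 ± 8.08 CPM in WT and 30.8 ± 27.9 CPM in KO (SD, n = 3), and the log2 fold change was -0.03 ± 1.45 (SE, edgeR adjusted p = 0.998). Leaving out KO2 gave 0.56 (edgeR adjusted p = 0.31), and limma-voom with all libraries gave -2.51. The mean of KO1 and KO3 was then 46.1 CPM.

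Cdkn2b, which encodes p15Ink4b, had 175, 105 and 144 counts in WT and 83, 0 and 164 counts in KO1 to KO3. The levels were 7.305, 5.60 and 7.13 CPM in WT and 4.56, 0 and 7.755 CPM in KO. KO3 was the highest and KO2 the lowest library, and KO1 lay below all WT libraries. KO2 had 0 counts against 247 in KO1 and KO3. With 3 counts taken as its floor, the level in KO2 was 40.8-fold lower. The 95% exact counting interval of the fold began at 32.9. The log2 fold change over all 6 libraries was -0.70 ± 1.37 (SE, edgeR adjusted p = 0.89), leaving out KO2 gave -0.11, leaving out KO3 gave -1.55, and limma-voom gave -2.76. RefSeq places a long non-coding RNA, Gm12610, across Cdkn2b on this build.

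The low counts in KO2 covered 3 neighbouring genes. Gm12606, a long intergenic RNA next to Cdkn2a (89235699 to 89273403), had 388, 268 and 441 counts in WT and 487, 3 and 392 counts in KO1 to KO3. From the start of Gm12606 to the end of Cdkn2b the stretch measured 75.3 kb. On the side of Gm12606, Mtap, which encodes methylthioadenosine phosphorylase, ended 54.6 kb away and had 5767, 4429 and 4771 counts in WT and 3698, 4343 and 4243 in KO. KO2 lay inside the range of the other 5 libraries for Mtap, so the low values ended between these genes. On the other side the nearest rows with counts were Gm12609 (0, 15 and 2 counts in WT, 0, 18 and 0 in KO) and Gm12610 as GENCODE places it (0, 6 and 0, then 0, 6 and 3). KO2 had counts in both. For Gm12609, which GENCODE places at 89381957 to 89399880, KO2 (18) and WT2 (15) were the highest, against 0 to 2 elsewhere, all under 1 CPM. For Gm12610 the counts were too few to compare. The next gene of at least 1 CPM on that side, 5830433M19Rik, was 5189 kb from Cdkn2b, and its log2 difference in KO2 from the mean of WT1 and WT3 was 0.20. Whether the DNA of the stretch was present in KO2 was not tested.

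**Figure D3:**
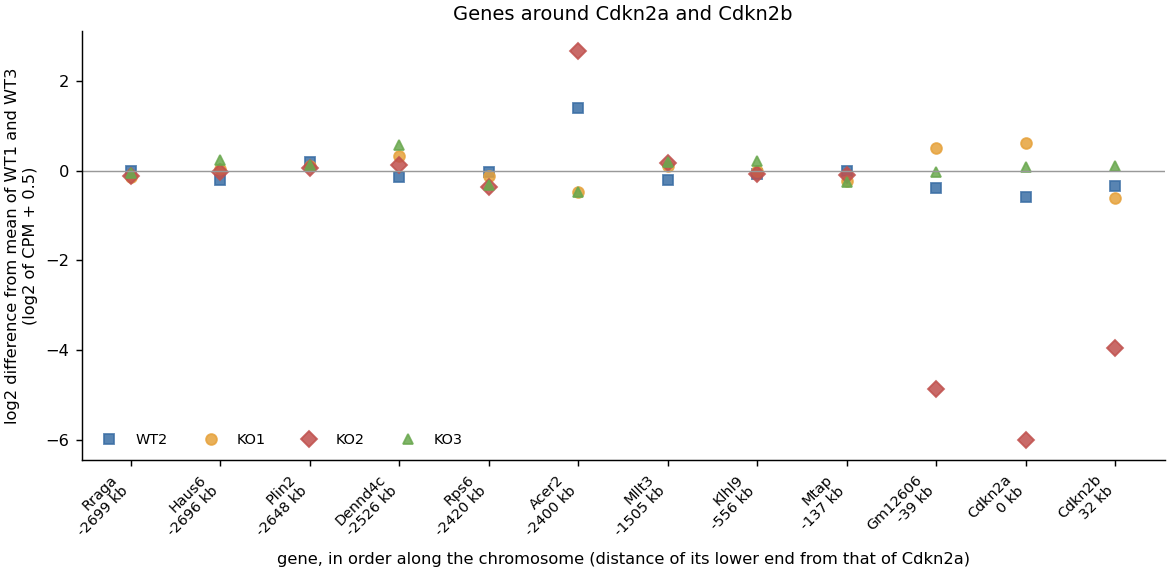
Log2 difference of CPM (offset 0.5 CPM) from the mean of WT1 and WT3 (vertical axis) for the 12 genes within 3 Mb of Cdkn2a and Cdkn2b above 1 CPM in a library, in chromosome order with distance in kb (horizontal axis, not to scale). KO2 (red diamonds) is at -4.88, -6.02 and -3.95 for Gm12606, Cdkn2a and Cdkn2b and near 0 for Mtap (-0.10).

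Within 3 Mb the table had 64 genes, of which 45 were at 0 in every library and 12 exceeded 1 CPM in at least 1 library. Of the 9 genes other than Gm12606, Cdkn2a and Cdkn2b, the differences in KO2 were -0.07 for Klhl9, 0.17 for Mllt3, -0.12 for Rraga, -0.03 for Haus6, 0.06 for Plin2, 0.14 for Dennd4c and -0.36 for Rps6. Acer2, which encodes an alkaline ceramidase, went the other way in KO2 with 2.68, from 77 counts. It had 25 counts in WT2 and 0 to 8 in the other libraries. With Mtap at -0.10, the genes on that flank thus had no shared shift in KO2.

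Cdkn2c and Cdkn2d, the INK4 genes outside that locus, were present in every library. Cdkn2c encodes p18Ink4c and lies 20.4 Mb from Cdkn2a on the same chromosome (109660876 to 109666756). Its levels were 60.4, 72.75 and 64.35 CPM in WT1 to WT3 and 86.3, 96.2 and 44.9 CPM in KO1 to KO3. KO1 and KO2 lay above all WT libraries and KO3 below all of them. The log2 fold change was 0.20 ± 0.29 (SE, edgeR adjusted p = 0.85), and -0.0013 without KO2. Among 10 neighbours of at least 1 CPM, the median log2 difference in KO2 was -0.17, against 0.62 for Cdkn2c itself. They ranged widely, from -4.97 for Dmrta2 to 4.55 for 9630013D21Rik.

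Cdkn2d encodes p19Ink4d (chromosome 9, 21288459 to 21291421) and had the narrowest spread of the 7 tested genes in KO relative to its mean. It measured 34.8, 37.5 and 39.75 CPM in WT and 42.6, 43.9 and 32.6 CPM in KO1 to KO3. As for Cdkn2c, KO1 and KO2 were above and KO3 below the WT libraries. The log2 fold change was 0.09 ± 0.14 (SE, edgeR adjusted p = 0.86, 95% interval -0.26 to 0.43) and 0.02 without KO2. Over the 6 libraries Cdkn2c and Cdkn2d had a Pearson r of 0.94 in log2 CPM, and 0.90 over the 5 libraries without KO2. These values share libraries and are a description.

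Cdkn1a encodes p21, a transcriptional target of p53 (chromosome 17, 29090979 to 29100722). Of its pair of RefSeq starts, the inner one (chr17:29093519-29093818, plus strand) held 23 CpG dinucleotides and 2 GC boxes, at -104 and -46, and the outer one held 2 CpG dinucleotides and no match. The inner promoter and that of Cdkn3 (chr14:46760291-46760590, plus strand) are shown because these genes had the largest ratios of KO2 to the other libraries among the 7.
Cdkn1a inner start: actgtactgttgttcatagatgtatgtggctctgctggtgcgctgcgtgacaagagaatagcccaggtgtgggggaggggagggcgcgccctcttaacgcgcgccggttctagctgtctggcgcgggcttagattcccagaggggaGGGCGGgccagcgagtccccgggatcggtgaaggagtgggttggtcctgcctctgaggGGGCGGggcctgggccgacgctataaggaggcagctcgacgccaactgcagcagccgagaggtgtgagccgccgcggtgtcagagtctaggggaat
Cdkn3: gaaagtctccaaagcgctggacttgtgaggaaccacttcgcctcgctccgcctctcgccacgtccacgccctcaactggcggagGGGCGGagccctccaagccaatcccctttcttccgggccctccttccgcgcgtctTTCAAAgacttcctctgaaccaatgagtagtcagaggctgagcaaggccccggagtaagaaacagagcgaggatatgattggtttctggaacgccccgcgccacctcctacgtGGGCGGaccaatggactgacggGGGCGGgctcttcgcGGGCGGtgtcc
The Cdkn3 promoter held 25 CpG dinucleotides, 4 GC boxes and the cell cycle homology region on the other strand (TTCAAA) at -111. Neither promoter held one of the E2F letters searched.

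Cdkn1a measured 16.9, 24.8 and 13.0 CPM in WT1 to WT3 and 14.3, 55.7 and 24.0 CPM in KO1 to KO3. KO2 was 3.0 times the mean of the other 5 libraries and 2.25 times the next highest, WT2, while KO1 and KO3 lay within the WT range. The log2 fold change of 0.78 ± 0.54 (SE, edgeR adjusted p = 0.67, 95% interval -0.56 to 2.12) became 0.08 without KO2. It was 0.36 without WT2 and KO2, and 1.07 without WT2 alone. Its 10 neighbours had a median log2 difference of 0.11 in KO2, against 1.88 for Cdkn1a, with a range of -0.75 to 3.56. GENCODE places AC167363.2 on the opposite strand of Cdkn1a, and it has no row of its own.

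Cdkn1b encodes p27, a CIP/KIP protein controlled largely by degradation (chromosome 6, 134920401 to 134925525). The WT libraries were close together at 29.8, 32.0 and 30.7 CPM, and KO1, KO2 and KO3 were at 31.0, 50.15 and 40.8 CPM. KO2 and KO3 lay above all WT libraries and KO1 within their range. Means were 30.8 ± 1.14 CPM in WT and 40.65 ± 9.56 CPM in KO (SD, n = 3). The log2 fold change was 0.40 ± 0.18 (SE, edgeR adjusted p = 0.55, 95% interval -0.05 to 0.85), the smallest adjusted p of the 7 genes, and 0.23 without KO2. Taken by number, the KO library of Cdkn1b was the higher in each pair, though the labels do not say what a number marks. With the replicate block the log2 fold change was 0.37 (edgeR adjusted p = 0.53). Of its 10 neighbours 7 were higher in KO2 than the mean of WT1 and WT3, with a median log2 difference of 0.54 against 0.72 for Cdkn1b. The same neighbours had medians of 0.02 in WT2, 0.02 in KO1 and 0.13 in KO3, and all 10403 genes a median of -0.01 in KO2. The differences of the 10 neighbours in KO2 ranged from -3.07 to 0.78. Around the other members, 2 to 6 of 10 neighbours were higher in KO2. The part of the neighbourhood in the value of Cdkn1b was not tested.

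Cdkn1c encodes p57, an imprinted inhibitor expressed mainly from the maternal allele (chromosome 7, 143458339 to 143461059, minus strand). Its 0 counts in each library allow a level of up to 0.165 CPM, the worth of 3 counts in KO1. It was measured in the neighbourhood of genes with counts: its 10 nearest genes of at least 1 CPM had a median log2 difference of -0.01 in KO2. Of 10 genes listed from the imprinted region around it, 9 had a row and 4 were tested. The fold changes of those 4 were negative for 3, with a median of -0.28 (-0.18 without KO2), and 0 passed the edgeR test. H19 had the largest (-4.29 ± 2.11 SE, edgeR adjusted p = 0.57). It measured 0.96, 51.75 and 79.6 CPM in WT and 0, 6.52 and 0.236 CPM in KO, so the WT libraries differed widely and the groups overlapped. Nap1l4, a histone chaperone gene, measured 308.4, 302.2 and 315.4 CPM in WT and 278.1, 247.2 and 266.4 CPM in KO, with all KO libraries below WT (log2 fold change -0.23, edgeR adjusted p = 0.48). Cd81, which encodes a tetraspanin of the cell surface, also had all KO libraries below WT (-0.33), though its groups overlapped with library totals alone, and Tssc4 had all of them above (0.15).

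Cdkn3 (chromosome 14, 46760461 to 46771530) measured 8.68, 17.85 and 9.75 CPM in WT1 to WT3 and 7.36, 28.0 and 8.985 CPM in KO1 to KO3. KO2 and WT2 stood above the other 4 libraries, which lay between 7.36 and 9.75 CPM. KO2 was 2.66 times the mean of the other 5. The log2 fold change was 0.29 ± 0.60 (SE, edgeR adjusted p = 0.90), and -0.56 without KO2 (edgeR adjusted p = 0.42). Its 10 neighbours had median log2 differences of 0.04 in WT2 and 0.08 in KO2, against 0.92 and 1.56 for Cdkn3 itself. Cdkn3 is transcribed most in dividing cells, so 17 mitotic genes were read beside it. Their fold changes were positive for 9 and negative for 8, with a median of 0.02 (-0.07 without KO2), and 0 passed the edgeR test. A fold change between groups does not show the pattern of Cdkn3, which was high in WT2 and KO2. Some of the 17 had that pattern, such as Nek2, at 229.1 CPM in WT2 and 293.5 CPM in KO2 against 101.0 to 171.3 CPM elsewhere. Others did not, such as Kif20a, at 389.9 CPM in WT2 and 347.5 CPM in KO2 against 327.0 to 431.2 CPM elsewhere. Nek2 was picked as a clear case, and how many of all genes had the pattern was not counted. Cenpe, a mitotic kinesin, had all KO libraries above WT (log2 fold change 0.29), while Kif20a (-0.20) and Plk1 (-0.14) had all KO libraries below WT, but overlapping groups with library totals alone.

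Levels were set side by side per length of exon, as RPKM, which is CPM divided by exon length in kb. The WT levels formed a high and a low group. Cdkn2a (26.8 ± 6.90 RPKM, SD, n = 3), Cdkn2c (24.5 ± 2.34) and Cdkn2d (23.7 ± 1.58) made the high group, and their ranges overlapped. Below them came Cdkn1b (6.77 ± 0.251), Cdkn1a (5.13 ± 1.69), Cdkn3 (5.10 ± 2.12) and Cdkn2b (4.80 ± 0.676), in which each neighbour in the order overlapped the next, and Cdkn1c at 0. By the longest transcript in place of all exons, Cdkn1a (8.76 RPKM) came before Cdkn1b (6.77). In KO the order was Cdkn2c (28.2 ± 10.1), Cdkn2a (26.2 ± 23.85), Cdkn2d (25.2 ± 3.94), Cdkn1b (8.93 ± 2.10), Cdkn1a (8.82 ± 6.10), Cdkn3 (6.24 ± 4.85) and Cdkn2b (2.95 ± 2.80).

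Summed per length, the INK4 genes outweighed the CIP/KIP genes in every library. The INK4 sum was 76.8, 74.8 and 88.0 RPKM in WT1 to WT3 and 109.2, 63.7 and 75.0 RPKM in KO1 to KO3. KO1 had the highest and KO2 the lowest sum, and KO3 lay within the WT range. In KO2 the sum consisted almost wholly of Cdkn2c (56.2%) and Cdkn2d (43.7%), with Cdkn2a at 0.0687%. In the other 5 libraries Cdkn2a made up 26.6% to 42.8% of it. The CIP/KIP sum was 11.3, 14.0 and 10.4 RPKM in WT and 10.8, 26.7 and 15.7 RPKM in KO, highest in KO2. Cdkn1a exceeded Cdkn1b in that library alone, with a ratio of Cdkn1b to Cdkn1a of 0.702 against 1.01 to 1.85 elsewhere. That order depends on the length used: by the longest transcript the ratio was 0.411 in KO2 and 0.591 to 1.08 elsewhere, and Cdkn1b exceeded Cdkn1a in WT3 alone. Set against the kinases that INK4 proteins bind, transcripts of the INK4 genes amounted to 0.343, 0.326 and 0.3755 times the sum of Cdk4 and Cdk6 in WT. In KO they amounted to 0.492, 0.316 and 0.3435 times that sum. The ratio in KO2 was the lowest of the 6, at 0.316 against 0.326 in WT2. The Cdkn2a part of these sums, shares and ratios includes any p19Arf transcripts, which counts per gene do not separate from those of p16Ink4a. Transcript ratios do not give protein ratios.

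**Figure D4:**
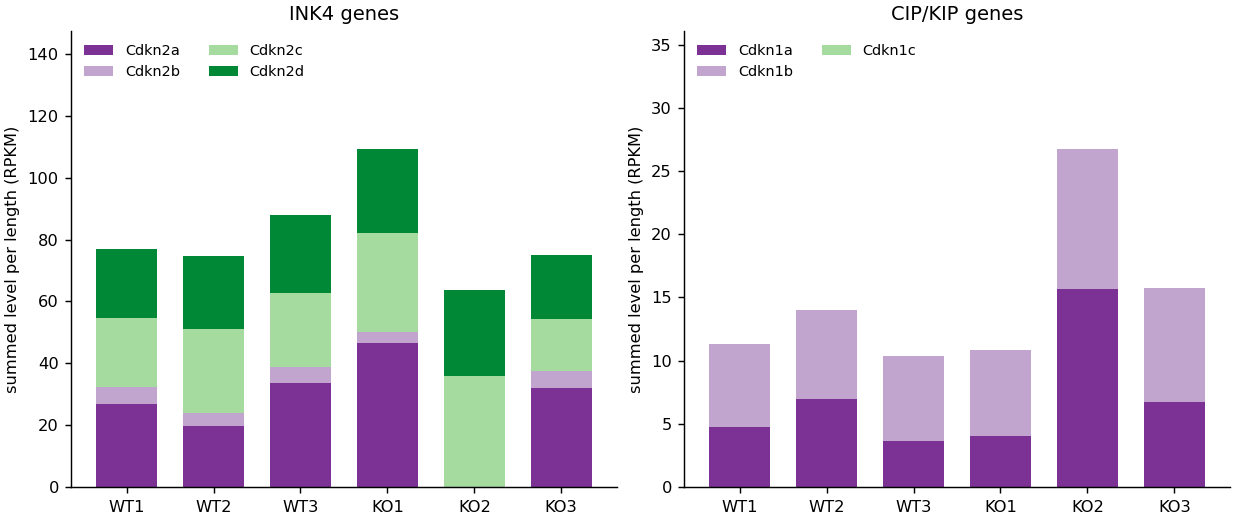
Summed RPKM (vertical axes from 0, different scales) of the INK4 genes (left) and the CIP/KIP genes (right) in each library (horizontal axis), with 1 colour per gene. The KO2 bar on the left (63.7 RPKM) shows Cdkn2c and Cdkn2d alone, and on the right KO2 has the highest sum (26.7 RPKM).

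Members were compared by their pattern across libraries, as a description. Over the 6 libraries Cdkn2a and Cdkn2b had a Pearson r of 0.98 in log2 CPM, and of -0.30 over the 5 without KO2. Cdkn1a and Cdkn1b had 0.90 and 0.63, and Cdkn1a and Cdkn3 had 0.88 and 0.60. Cdkn2a and Cdkn3 were opposed both with KO2 (-0.87) and without it (-0.87). Each tested gene was then compared with 9294 genes of at least 5 CPM. The 3 genes most like Cdkn2a were Trim16 (r = 0.9996), its neighbour Gm12606 (0.9996) and Hoxb5 (0.9992). Trim16 and Hoxb5 had 0 CPM in KO2. For Cdkn2b they were Tle1 (0.9995), Scpep1 (0.9993) and Lrp5 (0.999). Those of Cdkn1a were Srprb (0.994), Tyk2 (0.993) and Ftsjd1 (0.991), and those of Cdkn1b were Ticam1 (0.998), Mtmr6 (0.997) and Cd69 (0.996). Without KO2, 0 of the 3 genes stayed among the first 3 for Cdkn1a, Cdkn1b, Cdkn2a, Cdkn2b or Cdkn2c. Cdkn2c was most like Usf1 (0.995), Cyb561d1 (0.993) and Txnip (0.991), and Cdkn2d most like Zrsr1 (0.992), Becn1 (0.986) and Rab3a (0.983). For Cdkn3 the first 3 were Gnptab (0.997), Nfkbil1 (0.996) and Pdlim7 (0.996). Of these, 1 of 3 stayed for Cdkn2d and 1 of 3 for Cdkn3. All the genes named here as most alike had r of 0.944 to 0.996 without KO2, at ranks 3 to 69 of 9294. They were picked from 9294 genes with these same 5 libraries and KO2, so the choice itself favoured high values.

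The kinases and cyclins that INK4 proteins act on did not pass the edgeR test either (0 of 5, 3 fold changes positive and 2 negative, median 0.14, or -0.05 without KO2). Cdk4 measured 718.6, 734.2 and 748.5 CPM in WT and 711.7, 638.6 and 700.4 CPM in KO, all KO libraries below WT (log2 fold change -0.10 ± 0.06 SE, edgeR adjusted p = 0.64). With library totals alone its groups overlapped. Among the D cyclins the KO2 library again stood apart. Ccnd1 measured 414.6, 422.6 and 445.2 CPM in WT and 334.8, 51.1 and 364.9 CPM in KO1 to KO3, all KO libraries below WT (-0.77 ± 0.67). Ccnd2 was highest in KO2, at 1020 CPM against 341.7 to 484.9 CPM elsewhere (0.70 ± 0.37), and Ccnd3 ran from 1706 to 2160 CPM over all libraries (0.16 ± 0.09).

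Of the genes that CIP/KIP proteins inhibit, CDK1 and CDK2 with their cyclins, 7 of 8 were tested, with 2 fold changes positive and 5 negative (median -0.06, -0.20 without KO2, and 0 past the edgeR test). Ccna2 (-0.14), Ccne1 (-0.09) and Ccnb1 (0.14) came first by p, and the groups of each overlapped. Of 11 genes for pocket proteins and E2F factors, which lie downstream of both families, 10 were tested and 0 passed the edgeR test, with 6 positive, 4 negative and a median of 0.01 (0.03 without KO2). E2f4, a repressive member, had all KO libraries below WT (-0.13), but its groups overlapped with library totals alone. E2f2 (0.32) and Rbl2 (0.18), which encodes the pocket protein p130, had overlapping groups, though with library totals alone Rbl2 had all KO libraries above WT.

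For the machinery that degrades CIP/KIP proteins, 12 of 13 fold changes were negative, against 5148 of 10896 over all tested genes. The median was -0.08 (-0.09 without KO2) against 0.01 over all genes, and some were close to 0, such as Skp2 at -0.02. None of the 13 passed the edgeR test, 1 lower and 1 higher passed at an unadjusted p of 0.05, and none by DESeq2. Dtl, the substrate receptor of the ligase that destroys p21, measured 314.9, 270.6 and 293.1 CPM in WT and 248.7, 246.7 and 189.2 CPM in KO, all KO libraries below WT (-0.36 ± 0.13, edgeR adjusted p = 0.51). Cul1, the cullin of the SKP2 ligase that acts on p27, also had all KO libraries below WT (-0.24 ± 0.10), though not with library totals alone. Rnf123, a ligase subunit that acts on p27 in G1, had them above (0.19 ± 0.07).

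Among 19 tested of 23 regulators of the Ink4-Arf locus, 10 fold changes were positive and 9 negative (median 0.05, or -0.07 without KO2). Like the other lists, this one was chosen with earlier results of these data known. In it 0 genes passed the edgeR test, while DESeq2 called 1, against 219 of 10946 (2.0%) over all genes. That gene was Cbx7, a Polycomb subunit that represses the locus, at 14.15, 17.1 and 15.2 CPM in WT and 24.9, 19.9 and 24.7 CPM in KO. All 3 KO libraries were above WT (log2 fold change 0.58 ± 0.15, edgeR adjusted p = 0.48, DESeq2 adjusted p = 0.041). Dmtf1, an activator of the p19Arf promoter, had the same order (0.32 ± 0.09, DESeq2 adjusted p = 0.082). Jund had overlapping groups (-0.38).

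Of 13 genes around ARF and p53, 12 were tested, 9 positive and 3 negative with a median of 0.08 (0.05 without KO2), and 0 passed the edgeR test. DESeq2 called 1 of the 12, against 2.0% of all genes. That was Zmat3, a p53 target, at 28.05, 26.4 and 31.4 CPM in WT and 38.95, 40.2 and 42.8 CPM in KO (log2 fold change 0.51 ± 0.10, edgeR adjusted p = 0.48, DESeq2 adjusted p = 0.0057). All 3 KO libraries were above WT, KO2 included. The p53 targets Bbc3 (0.60) and Trp53inp1 (0.55) had overlapping groups. Further down this list by p were Sesn2 (1.05, groups overlapping) and Ccng1 (0.19, all KO libraries above WT). Mdm2 (0.05) and Bax (0.02) were close to 0. Of 15 transcription factors known to act on CIP/KIP genes, 12 were tested, 7 positive and 5 negative with a median of 0.05 (0.11 without KO2), and again 0 passed the edgeR test. DESeq2 called 1 of these 12, Foxo1, again against 2.0% of all genes. Both lists were chosen with earlier results of these data known. Foxo1, an activator of Cdkn1b and Cdkn1a, measured 116.1, 132.6 and 121.7 CPM in WT and 174.4, 165.1 and 182.2 CPM in KO. Every KO library lay above WT, and the log2 fold change was 0.49 ± 0.08 (edgeR adjusted p = 0.48, DESeq2 adjusted p = 8.52e-06). Smad3 (-0.39) and Sp1 (0.10) had overlapping groups.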

How the data were processed

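TruSeq RNA libraries of 6 mouse cell lines were compared, 3 per group, grouped by the labels. The authors deposited 1 table of raw counts per gene symbol (25965 rows). The tools that the submitters' processing notes name are Trim Galore, STAR and DESeq2, and the build is GRCm38. What each tool did and its version, how reads were counted, on which annotation and with or without strand is not given in the sources used here, which leaves reads of overlapping genes unresolved. A marker of the early B lineage list is not reported here. The members and all gene lists were chosen with earlier results of these data known.

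Every row was fitted with edgeR 4.0.16 in R 4.3.3 (TMM, filterByExpr, robust quasi-likelihood F test, two-sided, Benjamini-Hochberg adjustment over all tested genes), without a block. DESeq2 1.42.0 gave no adjusted p for 15019 rows. CPM used total counts times TMM factors. RPKM divided CPM by the union of GENCODE exons, and promoters came from RefSeq (GRCm38.p6). For Pearson r a prior count of 2 was added before taking log2 CPM. Neighbours were the 5 genes on each side of a member with at least 1 CPM on average.

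Named were the members, Cdk6, the 5 INK4 targets and partners, the 3 genes of each list with the smallest edgeR p, the 3 genes most like each member and the genes above 1 CPM within 3 Mb of Cdkn2a and Cdkn2b. Gm12609, Gm12610, 5830433M19Rik, H19, E2f6, Nek2, Skp2, Sesn2, Ccng1, Mdm2 and Bax were added after their values were seen. Both groups carry the numbers 1 to 3. The deviations of same-numbered libraries from their group means correlated across genes at 0.326, 0.643 and 0.457, each above the criterion of 0.1, so the numbers were taken as pairs in an alternative with a replicate block. WT1, however, correlated more with KO3 (0.406), and KO1 more with WT3 (0.361). Deviations from a group mean depend on each other, so the criterion does not settle whether numbers 1 and 3 mark pairs. Also tried were library totals alone, RLE size factors, limma-voom 3.58.1, DESeq2, other low-count filters, no robust estimates, other lengths and prior counts, and leaving out libraries. DESeq2 without KO2 was added after seeing the data.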

Additional observations from a re-analysis of the deposited data

How the results depend on the processing

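Under the alternatives, 102 of 112 fold changes of the 7 tested genes kept their direction and their side of the threshold, and 0 of the 7 genes passed it under any of them. The smallest adjusted p of a member was 0.5531 in the main edgeR analysis and ran from 0.253 in DESeq2 without KO2 to 0.9967 without WT3. The number of all genes called was 0 in edgeR and 219 in DESeq2, and 684 in DESeq2 without KO2, which was chosen after seeing the data. In that last setting the log2 fold changes were 0.56 for Cdkn2a, -0.0019 for Cdkn2c and -0.56 for Cdkn3. For Cdkn2a the log2 fold change turned from -0.03 to 0.01 with library totals alone and to 0.38 without WT2 and KO2, and leaving out 1 library at a time gave -0.73 (without KO1) to 0.56 (without KO2). In limma-voom, which averages log values, it was -2.51, and that of Cdkn2b was -2.76 (-0.70 in edgeR, and -1.55 to -0.11 with 1 library left out). For Cdkn2c leaving out 1 library gave -0.0013 to 0.47. For Cdkn3 it gave -0.56 to 0.68, and leaving out WT2 and KO2 gave -0.17. The causes were not tested, beyond the loss of the single library named. With the replicate block the log2 fold changes were -1.07 for Cdkn2a, -1.58 for Cdkn2b, 0.61 for Cdkn1a, 0.37 for Cdkn1b, 0.14 for Cdkn2c, 0.08 for Cdkn2d and 0.10 for Cdkn3. The block changed no call: edgeR called 0 genes with it, and the smallest adjusted p of a member was 0.5285. With the longest transcript in place of all exons, the WT level of Cdkn1a was 8.76 RPKM (5.13 before), of Cdkn2a 35.1 (26.8) and of Cdkn2d 26.2 (23.7). Below 3 counts in a library, as for Cdkn2a and Cdkn2b in KO2 and Cdkn1c throughout, depth sets the lowest level that can be told from 0.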
